A study of Mus musculus with 24 samples.

Results

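The interferon-stimulated genes are genes whose transcription rises when a cell is exposed to interferon. A list of 35 of them was followed in lung RNA of young and old mice after ischemia and reperfusion of the left lung. The members were taken by gene symbol from the deposited expression table, which lists 45777 genes. All 35 were found, as 105 of its 129299 transcripts, and all 35 passed the filter on low counts that left 19690 genes to test. The list was drawn up by name from general knowledge of interferon responses and not by how the genes moved, although earlier results of these data were known.

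The 24 libraries came from lungs of male wild-type C57BL/6J mice, per the labels and the design text of the series. The young animals had an age of 8 to 12 weeks, the old ones of 22 to 24 months. Artery, vein and bronchus of the left lung were clamped together for 60 min, and tissue was taken 1 h or 1 day after release of the clamp. For each age there were sham lungs, lungs at 1 h and lungs at 1 day, which makes 6 groups of 4 libraries. The labels do not say how long after the sham operation those lungs were taken, whether the libraries are separate animals, or which lung the RNA came from. The p-values therefore measure the spread between these samples.

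Interferons are secreted proteins that reach neighbouring cells. The type I interferons, alpha and beta, act through the receptor pair Ifnar1 and Ifnar2. Type III interferons act mainly on epithelium, through Ifnlr1 and Il10rb, and interferon gamma, made chiefly by T and NK cells, acts through Ifngr1 and Ifngr2. The receptors switch on Janus kinases. For type I and type III interferon the kinases activate a factor containing Stat2 and Irf9 that binds the interferon-stimulated response element (ISRE). The response to interferon gamma runs mainly through the gamma-activated site (GAS). In lung the genes so induced are best known as the first defence against respiratory viruses.

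RefSeq promoter windows, from 250 bases before to 50 after a transcription start on GRCm38.p6, could be matched by symbol to 25 of the 35 members. The ISRE core was searched as GAAA, any 2 bases and GAAA, and the GAS core as TTCNNNGAA, on both strands and with overlapping matches counted. The ISRE core was present in 16 of the 25 members, or 64.0%, against 3.99% of all 27025 genes with a window. The GAS core was present in 6 of 25, or 24.0%, against 9.55% of all genes. These matches describe the windows only. No ISRE core match was found in the windows of Ifit2, Oasl1, Oasl2, Cmpk2, Ifi44, Xaf1, Irf1, Irf7 and Cxcl9, and that says no more than that these letters are not in that window.

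Promoter windows of 4 members are printed below because they show the different arrangements found, with matches to either core in capitals and each sequence running 5′ to 3′ on the strand of its gene. The Isg15 window, chr4:156200769-156201068 on the minus strand, holds 3 overlapping ISRE core matches. The Oas1a window, chr5:120907476-120907775 on the minus strand, holds 2 overlapping ISRE core matches just before the start and a GAS core match further away. In the Igtp window, chr11:58199306-58199605 on the plus strand, a GAS core match and an ISRE core match lie next to each other. The window of the upstream Irf1 start, chr11:53769764-53770063 on the plus strand, holds a GAS core match alone.
Isg15: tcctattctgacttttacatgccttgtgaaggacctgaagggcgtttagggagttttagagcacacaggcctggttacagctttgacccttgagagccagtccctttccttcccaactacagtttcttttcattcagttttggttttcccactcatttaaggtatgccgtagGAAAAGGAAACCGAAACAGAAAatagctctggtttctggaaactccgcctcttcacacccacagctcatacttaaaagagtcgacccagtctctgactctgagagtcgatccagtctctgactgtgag
Oas1a: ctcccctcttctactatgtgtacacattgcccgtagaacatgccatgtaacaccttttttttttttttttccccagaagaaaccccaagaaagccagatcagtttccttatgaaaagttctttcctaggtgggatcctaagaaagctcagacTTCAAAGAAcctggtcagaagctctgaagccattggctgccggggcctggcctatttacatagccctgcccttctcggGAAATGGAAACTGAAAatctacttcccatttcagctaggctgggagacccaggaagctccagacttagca
Igtp: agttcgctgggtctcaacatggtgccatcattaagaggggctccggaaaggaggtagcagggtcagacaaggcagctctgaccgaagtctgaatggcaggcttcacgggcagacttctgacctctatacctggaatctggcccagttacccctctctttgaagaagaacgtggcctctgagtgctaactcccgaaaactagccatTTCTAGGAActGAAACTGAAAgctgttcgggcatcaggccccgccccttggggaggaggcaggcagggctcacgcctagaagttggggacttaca
Irf1: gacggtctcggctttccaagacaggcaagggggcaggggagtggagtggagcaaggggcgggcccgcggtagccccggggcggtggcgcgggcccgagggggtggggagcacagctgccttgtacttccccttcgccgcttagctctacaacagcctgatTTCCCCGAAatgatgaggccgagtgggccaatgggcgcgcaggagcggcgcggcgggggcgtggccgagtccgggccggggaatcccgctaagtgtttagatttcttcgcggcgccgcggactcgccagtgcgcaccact

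**Figure D1:**
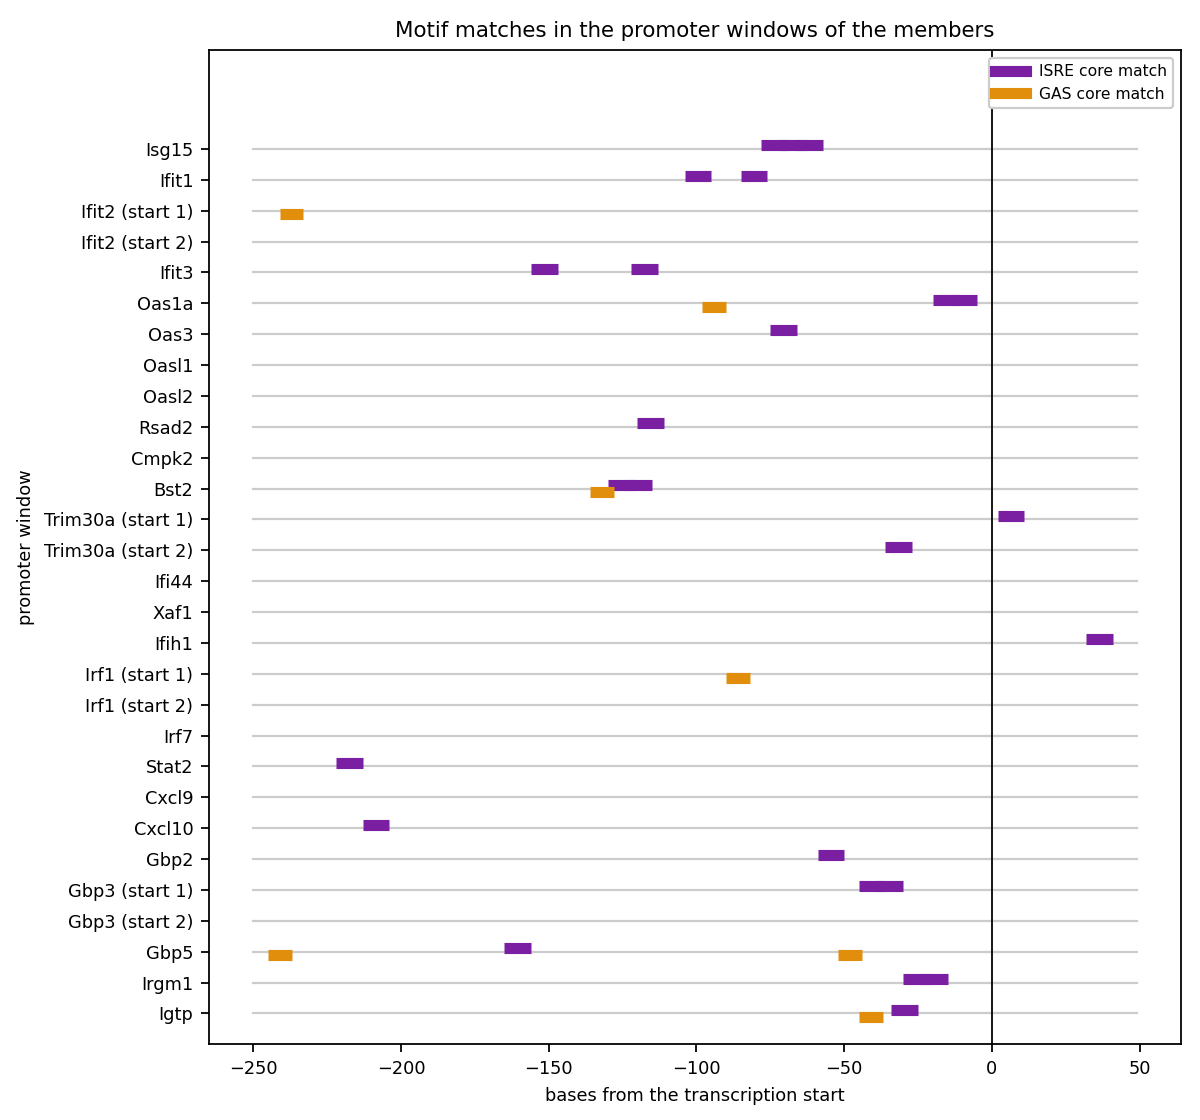
Matches to the ISRE core (purple) and the GAS core (orange) in the promoter windows of the 25 members that have a window, by distance in bases from the transcription start (0, vertical line). Each grey line is 1 window, and members with more than 1 annotated start have a line for each. ISRE core matches were found in 16 members and GAS core matches in 6.

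Library totals ran from 27850677 to 44504824 estimated reads, and no pair within a group agreed within sampling noise. The lung markers Sftpc, Sftpb, Ager, Scgb1a1 and Cldn5 summed to 29094 to 33406 CPM, which are counts scaled by the library total, in young sham and to 17212 to 24106 CPM in old 1 day libraries. For the more abundant genes with known GC content, a library's log2 level was taken relative to the mean of all libraries. It rose with GC in young 1 h and young 1 day libraries (Spearman's rho 0.245 to 0.515). In the 4 other groups it fell with GC (-0.421 to -0.0292). This trend with GC divides the groups compared, and members whose call was lost after removing it are named with the comparisons. For the other pathway genes, values after its removal are not given. Neither their changes from sham nor their differences between the ages are adjusted for it. The trend also separates young sham from the young libraries after reperfusion. RNA from whole tissue cannot tell fewer cells of a type from less RNA per cell. Markers of other cell types moved as well: the sum of 10 monocyte and recruited macrophage markers was 1162 to 1589 CPM in young sham, 3121 to 5575 in young 1 day, 901 to 1302 in old sham and 2549 to 5291 in old 1 day libraries. The sums of 10 neutrophil markers in old lungs were 972 to 1329.8 CPM (sham), 1947 to 7519 (1 h) and 683 to 5747 (1 day), against 472 to 884, 1125 to 2489 and 468 to 848 in the same order in young lungs. For 12 T and NK cell markers the sums were 109.5 to 132 CPM in young sham, 54.4 to 77.1 in young 1 day, 90.6 to 103 in old sham and 41.6 to 65.8 in old 1 day. The 10 markers of plasmacytoid dendritic cells, a major source of type I interferon, summed to 297 to 347, 287 to 331, 295 to 353 and 239.8 to 262 CPM in the same 4 groups. At 1 h this sum was 367 to 399 CPM in young and 341 to 438 in old lungs. It rested mainly on Tcf4, at 140 to 226 CPM over all libraries, and Irf8, at 48.3 to 91.8. Siglech was at 1.02 to 9.78 CPM, so the sum is no measure of these cells alone. None of these marker genes was at 0 in every library, and the part of these cells in the results was not tested.

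Some libraries stood apart from their group over most of the list. Young 1 day library 4 had the highest CPM of its group for 24 of the 35 members and library 3 the lowest for 32. Old 1 day library 2 was highest for 27 members. Old sham library 4 was lowest for 27, old 1 h library 4 for 25 and young 1 h library 4 for 19. In young sham lungs no library was lowest for more than 13 members. Old 1 day library 2 also had the highest neutrophil marker sum of its group, 5747 CPM, and young 1 day library 4 had 60.00 CPM of T and NK cell markers against 75.98, 77.1 and 54.4 in libraries 1 to 3; the part of either in the results was not tested. Calls against sham at 1 day that were lost without young 1 day library 4 or old 1 day library 2 are given with and without it.

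**Figure D2:**
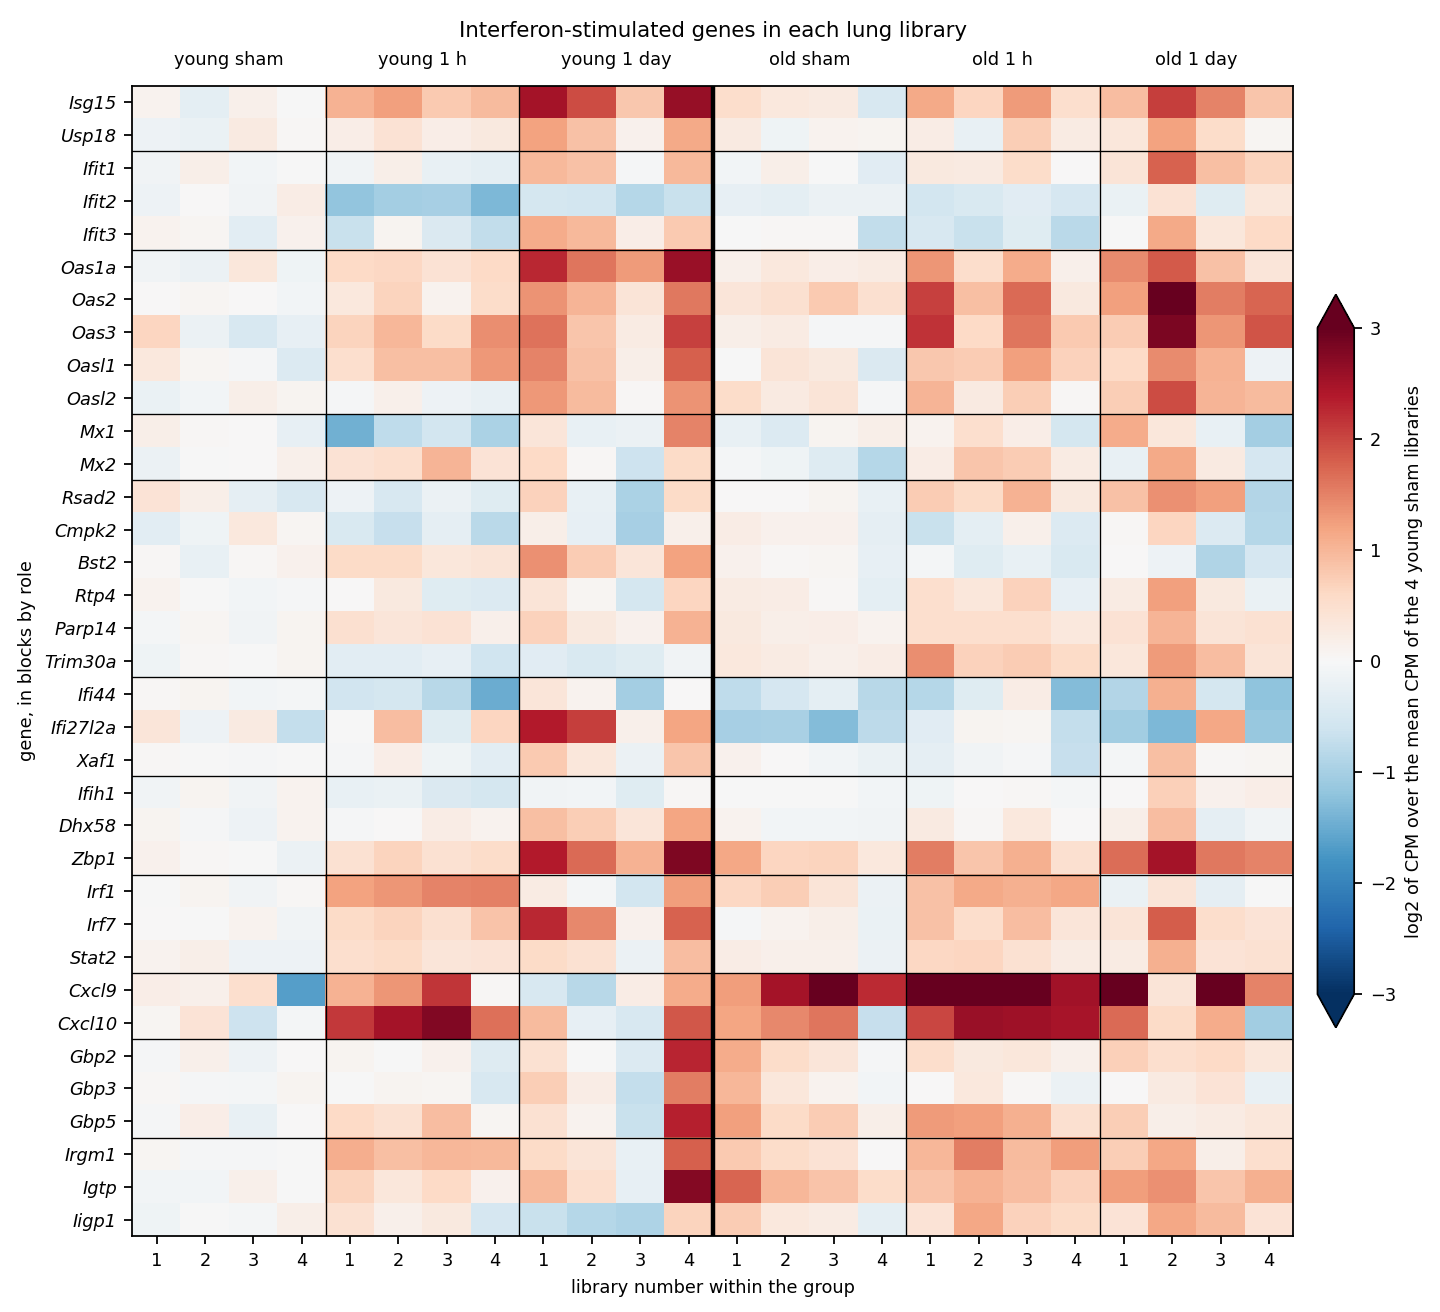
Level of each of the 35 genes (rows, in blocks by role) in each of the 24 libraries (columns, numbered within their group), as log2 of its CPM over the mean CPM of the 4 young sham libraries, with the color scale ending at -3 and 3. Young 1 day library 4 and old 1 day library 2 are the reddest columns of their groups, with the highest value for 24 and 27 members, and young 1 day library 3 is close to sham over much of the list.

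Per unit of transcript length, as TPM, the members spanned a wide range. The most abundant over all libraries was Bst2, at 187 ± 16.6 TPM (SD, n = 4) in young sham lungs, followed by Irf1 at 133 ± 13.4 TPM. The 3 lowest over all libraries were Mx1, Mx2 and the chemokine gene Cxcl9. In young sham lungs they were at 3.83 ± 0.475, 2.88 ± 0.284 and 0.392 ± 0.199 TPM. Within young sham alone the order differed, with Ifi27l2a at 141 TPM above Irf1 and Oas3 at 3.59 TPM below Mx1. Changes of Mx1, Mx2 and Cxcl9 rest on fewer reads than those of the other members. Their means over all libraries were 158, 120 and 91.5 estimated reads.

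At 1 h after reperfusion 9 of the 35 members were called in young and 3 in old lungs. In young lungs 7 members were higher than sham (background 21.2% of all genes tested) and 2 were lower (background 20.1%) by edgeR's quasi-likelihood test with Benjamini-Hochberg adjustment over 19690 genes. The risers were Cxcl10, Irf1, Isg15, Irgm1, Oasl1, Bst2 and Stat2, and the genes that fell were Ifit2 and Ifih1. The members' median log2 change was 0.36, beside 0.02 over all genes. In old lungs 3 members rose (background 12.6%) and 0 fell (background 12.6%), with a median of 0.31 beside 0.00 over all genes. At an unadjusted p under 0.05 there were 13 members in young and 12 in old lungs, beside 48.7% and 36.8% of all genes. The shares of members called at 1 h, 9 of 35 in young and 3 of 35 in old lungs, were below the 41.3% and 25.2% of all genes called in either direction. Of the 9 calls in young lungs, those of Ifit2, Irf1, Cxcl10 and Irgm1 held under every alternative fit and with any library left out. The young count fell to 5 without young sham library 4. After removal of the GC trend it was 5, of which Ifit2, Irf1, Cxcl10 and Irgm1 were among the 9. The calls of Isg15, Oasl1, Bst2, Ifih1 and Stat2 were then lost. These counts depend on the fit: with only the libraries of the groups compared they were 23 in young and 12 in old lungs, and with the most abundant transcript of each gene 5 and 0. The old count fell to 1 when old 1 h library 1, old 1 h library 3, old sham library 3 or old sham library 4 was left out. Of the 3 old calls, 0 held with every library left out in turn.

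At 1 day 22 members were called in young and 13 in old lungs. In young lungs 21 members rose (background 27.9%) and Ifit2 alone fell (background 26.0%), against 53.9% of all genes called in either direction, with a median log2 change of 0.80 beside -0.03 over all genes. In old lungs 13 rose (background 20.0%) and 0 fell (background 16.3%), against 36.3% called in either direction, with a median of 0.49 beside 0.02. The 11 members called at both ages, all upward, were Isg15, Ifit1, Ifit3, Oas1a, Oas2, Oas3, Oasl2, Parp14, Zbp1, Irf7 and Stat2. A further 11 were called in young lungs alone and Trim30a and Ifih1 in old lungs alone, which is a statement about thresholds; the difference between ages was tested separately and is given further on. Without young 1 day library 4 the young count fell from 22 to 16, of which 15 were among the 22, and the calls of Oas3, Xaf1, Stat2, Gbp2, Gbp5, Irgm1 and Igtp were lost. Without old 1 day library 2 the old count fell from 13 to 6, of which Isg15, Ifit1, Oas2, Oas3 and Zbp1 were among the 13. It was 8 without old sham library 3 and 8 without old sham library 4. With the most abundant transcript of each gene the counts were 13 in young and 5 in old lungs, and with only the libraries of the groups compared the old count was 7.

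**Figure D3:**
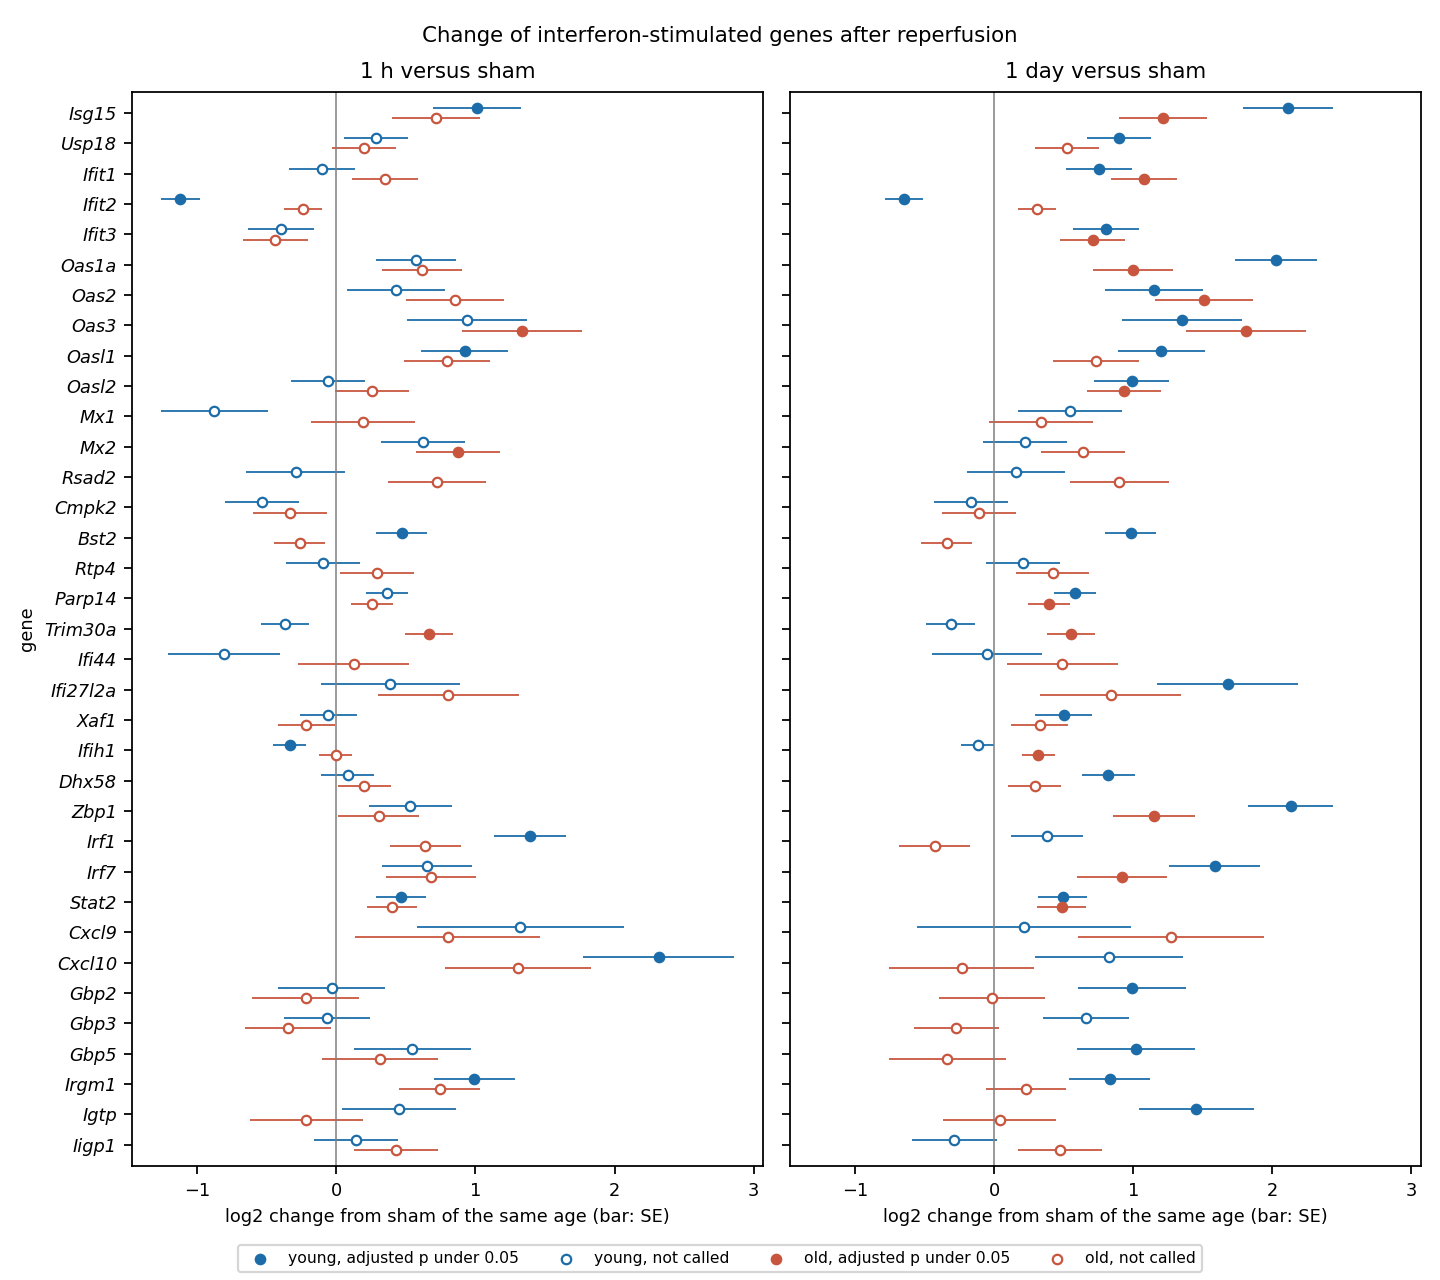
Log2 change from sham of the same age for each of the 35 genes at 1 h (left) and at 1 day (right) in young (blue) and old (red) lungs, with bars for the standard error. Filled points passed an adjusted p of 0.05 in edgeR's quasi-likelihood test. At 1 h there are 9 filled points in young and 3 in old lungs, and at 1 day 22 and 13.

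Isg15 encodes a ubiquitin-like protein that is attached to other proteins during interferon responses, and Usp18 encodes the protease that removes it and also dampens the type I receptor. In young lungs Isg15 stood at 6.81, 5.21, 7.03 and 6.34 CPM in the sham libraries, at 13.01, 14.9, 10.9 and 12.3 at 1 h and at 35.7, 24.6, 11.1 and 38.6 at 1 day. Its groups did not overlap at either time, although library 3 at 1 day lay within the range of the 1 h libraries. In old lungs the values were 9.18, 7.91, 7.66 and 4.58 CPM in sham, 13.9, 9.92, 15.4 and 8.94 at 1 h and 12.1, 26.8, 17.7 and 11.3 at 1 day. The log2 change in young lungs was 1.01 ± 0.32 (SE; adjusted p = 0.0141) at 1 h and 2.11 ± 0.32 (adjusted p = 1.19e-05) at 1 day, and in old lungs it was 1.21 ± 0.32 at 1 day (adjusted p = 0.00488). The increase from 1 h to 1 day in young lungs, 1.10 ± 0.31, also passed the test (adjusted p = 0.00654). After removal of the GC trend the 1 h change in young lungs was 0.79 (adjusted p = 0.0524). Usp18 was at 13.4, 12.8, 17.8 and 15.3 CPM in young sham, 16.9, 20.1, 17.1 and 18.1 at 1 h and 34.5, 27.5, 16.3 and 32.4 at 1 day, where it was called with a log2 change of 0.90 ± 0.23 (adjusted p = 0.00236). The old libraries held 17.9, 13.5, 15.9 and 15.6 CPM in sham, 17.2, 12.7, 24.8 and 17.7 at 1 h and 18.8, 34.4, 21.8 and 15.5 at 1 day and gave no call. Among the young 1 day libraries of Usp18, library 3 alone fell within the young sham range.

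The IFIT proteins bind viral RNA that lacks host modifications. Against sham the 3 genes of the class did not move together. From 1 h to 1 day all 3 were called as higher in both ages. Ifit1 was at 16.3, 19.8, 16.4 and 17.3 CPM in young sham, 16.2, 19.7, 15.03 and 14.2 at 1 h and 34.5, 32.3, 17.02 and 34.1 at 1 day. The old libraries stood at 16.5, 19.6, 17.4 and 13.8 CPM in sham, 21.4, 20.9, 25.8 and 17.6 at 1 h and 22.8, 59.3, 32.4 and 27.6 at 1 day. All 4 old 1 day libraries lay above all 4 old sham libraries, while young 1 day library 3 lay within the young sham range. The log2 change at 1 day was 0.75 ± 0.24 (adjusted p = 0.0101) in young and 1.08 ± 0.24 (adjusted p = 0.00127) in old lungs.

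Ifit3, the partner that stabilizes Ifit1 on RNA in human cells, went from 66.8, 64.02, 49.4 and 67.1 CPM in young sham through 38.9, 65.8, 46.1 and 37.1 at 1 h to 134, 121, 71.3 and 106 at 1 day. The old values were 60.9, 63.6, 63.6 and 36.8 CPM in sham, 43.97, 39.04, 47.8 and 35.1 at 1 h and 61.3, 135, 78.4 and 93.03 at 1 day. The 1 h libraries were mostly at or below sham and the 1 day libraries mostly above it. Its log2 change at 1 day was 0.80 ± 0.23 (adjusted p = 0.00626) in young and 0.71 ± 0.23 (adjusted p = 0.0219) in old lungs, and without old 1 day library 2 the old change was 0.45 (adjusted p = 0.138). From 1 h to 1 day it rose by 1.20 ± 0.24 in young and 1.15 ± 0.24 in old lungs (adjusted p = 0.000314 and 0.000537). Reads of Ifit3 and its near-identical copy Ifit3b may have been divided between them by the counting, so the value of either is uncertain.

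Ifit2 went the other way in young lungs. It stood at 25.3, 28.5, 26.4 and 33.1 CPM in sham, fell to 12.6, 14.1, 14.2 and 11.2 at 1 h and was at 19.6, 19.4, 15.8 and 17.8 at 1 day, with no overlap between sham and either time. The log2 changes were -1.12 ± 0.14 at 1 h (adjusted p = 1.60e-06) and -0.64 ± 0.14 at 1 day (adjusted p = 0.000413). In old lungs Ifit2 was at 23.98, 23.3, 25.2 and 25.03 CPM in sham, 19.5, 20.7, 22.4 and 19.9 at 1 h and 24.8, 38.2, 21.96 and 35.8 at 1 day, with no call against sham. Removal of the GC trend left the 1 h change in young lungs at -0.75 (adjusted p = 0.000416) and took that at 1 day to -0.20 (adjusted p = 0.255).

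The OAS enzymes make short oligoadenylates when they meet double-stranded RNA, which activate RNase L; Oasl1 and Oasl2 are OAS-like genes. All 5 genes of the class rose at 1 day in young lungs (background 27.9%) and 4 in old lungs (background 20.0%), Oasl1 being the exception. The young call of Oas3 was lost without young 1 day library 4, and the old calls of Oas1a and Oasl2 without old 1 day library 2. Oas1a was at 6.73, 6.38, 9.23 and 6.66 CPM in young sham, 11.00, 11.2, 9.86 and 11.04 at 1 h and 34.7, 22.1, 17.7 and 43.7 at 1 day. Old lungs held 8.04, 9.09, 8.36 and 8.56, 18.04, 10.5, 15.6 and 8.103 and 19.4, 26.1, 13.3 and 9.26 CPM in sham, 1 h and 1 day libraries. Sham and 1 day did not overlap in either age. The log2 change at 1 day was 2.03 ± 0.29 (adjusted p = 5.99e-06) in young and 1.00 ± 0.29 (adjusted p = 0.00951) in old lungs. Without old 1 day library 2 the old change was 0.70 (adjusted p = 0.0625). Oas1a shares sequence with Oas1g and the other Oas1 copies, and the division of reads among them is uncertain.

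Oas2 had its highest value in an old library, as had Oas3 and Oasl2. The young libraries held 15.4, 15.7, 15.3 and 14.4 CPM in sham, 18.98, 24.3, 16.2 and 22.3 at 1 h and 38.8, 30.7, 19.9 and 45.7 at 1 day, and the old ones 19.7, 21.2, 26.02 and 21.2, 63.00, 28.2, 49.4 and 18.6 and 35.7, 120.3, 43.9 and 50.8. Its log2 change at 1 day was 1.15 ± 0.35 (adjusted p = 0.00921) in young and 1.51 ± 0.35 (adjusted p = 0.00227) in old lungs. Without old 1 day library 2, the highest, the old change was 0.97 (adjusted p = 0.0174). Oas3 was at 11.3, 6.48, 5.199 and 6.14 CPM in young sham, 11.6, 14.4, 10.9 and 19.2 at 1 h and 22.5, 13.02, 8.69 and 30.4 at 1 day. In old lungs it was at 8.26, 8.65, 7.12 and 7.06 CPM in sham, 32.7, 11.01, 22.1 and 12.6 at 1 h and 12.3, 51.9, 18.2 and 26.8 at 1 day. Old sham did not overlap with either later group, and Oas3 was called in old lungs at 1 h (1.33 ± 0.43, adjusted p = 0.0269) and at 1 day (1.81 ± 0.43, adjusted p = 0.00264). The 1 h call was lost without old 1 h library 1, where the change was 0.97 (adjusted p = 0.126). In young lungs Oas3 was called at 1 day only (1.35 ± 0.43, adjusted p = 0.0115), and without young 1 day library 4 the change was 1.00 (adjusted p = 0.0639).

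Oasl2 had the highest CPM of the class, with 33.3, 36.05, 43.2 and 40.7 in young sham, 37.1, 42.8, 34.3 and 33.01 at 1 h and 93.7, 73.5, 39.2 and 97.9 at 1 day. The old values were 56.5, 46.3, 50.5 and 37.3 CPM in sham, 77.9, 46.5, 63.99 and 39.2 at 1 h and 64.2, 148, 77.4 and 74.2 at 1 day. Its rise at 1 day was 0.99 ± 0.27 in young and 0.93 ± 0.27 in old lungs (adjusted p = 0.00381 and 0.00948). Without old 1 day library 2 the old change was 0.58 (adjusted p = 0.0736). At 1 h Oasl2 was not called against sham. The young 1 h libraries overlapped with sham, while old 1 h libraries 1 and 3 lay above all old sham libraries. Oasl1 was called in young lungs at 1 h (0.92 ± 0.31, adjusted p = 0.0212) and at 1 day (1.20 ± 0.31, adjusted p = 0.00251), from a mean of 4.18 ± 0.854 CPM (SD, n = 4) in sham to 7.93 ± 1.75 and 9.64 ± 4.31. After removal of the GC trend its 1 h change was 0.58 (adjusted p = 0.150).

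The Mx proteins are GTPases that block the replication of influenza and related viruses. The deposited table types both Mx transcripts as non-coding RNA, and most inbred mouse strains carry defective Mx genes. Mx1 was at 5.09, 4.62, 4.51 and 3.77 CPM in young sham, 1.67, 2.67, 3.09 and 2.34 at 1 h and 5.81, 3.83, 3.98 and 12.7 at 1 day. All young 1 h libraries lay below all young sham libraries, but the difference did not pass the test. It was higher at 1 day than at 1 h by 1.42 ± 0.38 (adjusted p = 0.00449), and by 0.89 (adjusted p = 0.0443) without young 1 day library 4. In old lungs Mx1 was at 3.85, 3.36, 4.72 and 5.07, 4.84, 6.38, 5.14 and 3.12 and 9.72, 5.71, 3.85 and 2.23 CPM, with no call. Mx2 stood at 2.93, 2.81, 2.33 and 1.68 CPM in old sham, 3.56, 5.44, 5.21 and 3.63 at 1 h and 2.62, 6.73, 3.69 and 2.14 at 1 day, and was called at 1 h (0.87 ± 0.30, adjusted p = 0.0387). That call held neither with every library left out nor under every alternative fit. The young values were 2.72, 3.02, 3.06 and 3.41 CPM in sham, 4.13, 4.35, 6.21 and 4.05 at 1 h and 4.61, 3.15, 1.98 and 4.51 at 1 day. All young 1 h libraries were above all young sham libraries here too, without a call.

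Bst2 encodes tetherin, a membrane protein that holds budding virions to the cell. In young lungs it was at 67.7, 56.04, 67.3 and 72.5 CPM in sham, 97.7, 98.3, 83.04 and 85.5 at 1 h and 171, 112, 84.2 and 153 at 1 day. Bst2 in old lungs was at 71.5, 67.03, 69.03 and 55.7, 63.00, 51.4, 56.4 and 48.3 and 66.1, 59.6, 35.5 and 46.7 CPM. Every young library after reperfusion lay above every young sham library, while every old library after reperfusion lay within or below the old sham range. The young log2 change was 0.47 ± 0.18 at 1 h (adjusted p = 0.0436) and 0.98 ± 0.18 at 1 day (adjusted p = 0.000111). Removal of the GC trend took the young 1 h change to 0.16 (adjusted p = 0.504).

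Trim30a, a ubiquitin ligase gene of the TRIM family, did the reverse. It was at 45.99, 43.6, 40.9 and 43.2 CPM in old sham, 97.6, 59.97, 62.5 and 55.5 at 1 h and 46.7, 90.1, 70.2 and 48.2 at 1 day, with no overlap between sham and either time. The young values were 33.9, 38.2, 36.7 and 39.2 CPM in sham, 29.6, 29.5, 31.2 and 24.4 at 1 h and 29.5, 27.03, 28.6 and 34.2 at 1 day. In old lungs the log2 change was 0.67 ± 0.17 at 1 h (adjusted p = 0.00748) and 0.55 ± 0.17 at 1 day (adjusted p = 0.0166). Without old 1 h library 1 the 1 h change was 0.44 (adjusted p = 0.0504), and without old 1 day library 2 the 1 day change was 0.33 (adjusted p = 0.129). Trim30a has close copies in the genome, among which reads may be divided.

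Parp14, an ADP-ribosyltransferase gene, had the highest CPM of the antiviral enzymes and restriction factors. It was at 83.9, 91.6, 80.8 and 92.96 CPM in young sham, 121, 113, 117 and 97.7 at 1 h and 140.1, 107, 95.2 and 179.7 at 1 day. The old libraries held 107, 99.3, 100.3 and 94.5, 124, 124, 123 and 109 and 118, 176, 114 and 121 CPM. Sham overlapped with no later group in either age. It was called at 1 day, with log2 changes of 0.58 ± 0.15 in young (adjusted p = 0.00262) and 0.40 ± 0.15 in old lungs (adjusted p = 0.0437). The old change was 0.21 (adjusted p = 0.282) without old 1 day library 2 and 0.40 (adjusted p = 0.0501) after removal of the GC trend. Rsad2 (viperin), which makes a chain-terminating nucleotide, its genomic neighbour Cmpk2, a nucleotide kinase gene, and Rtp4, a gene induced by type I interferon, were called in no comparison with sham. Rsad2 was at 11.4 ± 3.17 CPM in young sham, 9.29 ± 1.02 at 1 h and 12.7 ± 5.95 at 1 day, and at 11.2 ± 0.986, 18.4 ± 4.02 and 20.8 ± 10.4 CPM in the same order in old lungs. All 4 old 1 h libraries of Rsad2, at 14.02 to 23.5 CPM, lay above the old sham range of 9.71 to 11.9, without passing the test. Cmpk2 ranged over 15.5 to 24.01 CPM in young sham and 9.72 to 21.8 in young 1 day, and Rtp4 over 17.7 to 20.4 and 13.2 to 29.6 CPM.

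Ifi27l2a, a small interferon-induced gene, was at 36.6, 25.7, 34.7 and 17.5 CPM in young sham, 28.5, 54.4, 22.3 and 45.1 at 1 h and 149, 121, 31.9 and 64.9 at 1 day. In old lungs it was at 14.5, 14.5, 11.6 and 16.6, 22.8, 30.1, 29.7 and 17.4 and 13.96, 11.2, 64.4 and 13.1 CPM. At 1 day only library 3 of the old group was above the old sham range. The young log2 change at 1 day was 1.68 ± 0.51 (adjusted p = 0.00865). Xaf1, named for its binding to an inhibitor of apoptosis, rose in young lungs at 1 day (0.50 ± 0.21, adjusted p = 0.0436) from a sham mean of 28.04 ± 0.636 to 39.7 ± 11.7 CPM (SD, n = 4). Without young 1 day library 4 that change was 0.36 (adjusted p = 0.167). Ifi44 was called at no time, with means of 11.1 ± 0.614 CPM in young sham, 6.33 ± 1.72 at 1 h and 10.7 ± 3.77 at 1 day.

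The list holds 3 sensors of foreign nucleic acid: Ifih1 (MDA5), which recognizes long double-stranded RNA, Dhx58 (LGP2), which modulates it, and Zbp1, which senses left-handed nucleic acid and can start necroptosis. Zbp1 was at 8.07, 7.54, 7.34 and 6.53 CPM in young sham, 10.1, 11.7, 10.1 and 10.8 at 1 h and 38.4, 24.1, 15.2 and 51.7 at 1 day. The old libraries held 16.4, 11.6, 11.7 and 9.19 CPM in sham, 21.3, 13.2, 15.5 and 10.2 at 1 h and 23.5, 41.7, 21.9 and 20.8 at 1 day. All 1 day libraries lay above all sham libraries of their age, and old sham lay above young sham throughout. The log2 change at 1 day was 2.13 ± 0.30 (adjusted p = 4.92e-06) in young and 1.15 ± 0.29 (adjusted p = 0.00428) in old lungs, and both calls held with any library left out. Dhx58 rose in young lungs at 1 day (0.82 ± 0.19, adjusted p = 0.000987) from 11.9 ± 0.979 to 21.1 ± 4.93 CPM (SD, n = 4), with no overlap. Ifih1 was at 37.3, 42.1, 37.02 and 42.9 CPM in young sham, 34.1, 34.8, 29.7 and 27.6 at 1 h and 37.1, 37.5, 31.2 and 41.1 at 1 day. It was at 39.8, 39.6, 39.3 and 37.7, 36.2, 40.4, 40.8 and 38.4 and 40.1, 65.5, 43.5 and 45.96 CPM in old lungs. The gene fell slightly in young lungs at 1 h (-0.34 ± 0.12, adjusted p = 0.0259) and rose slightly in old lungs at 1 day (0.32 ± 0.12, adjusted p = 0.0375). After removal of the GC trend the young value was -0.01 (adjusted p = 0.958), and without old 1 day library 2 the old value was 0.13 (adjusted p = 0.317).

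Irf1, a transcription factor induced quickly by interferon gamma and by NF-kB signals, was an early gene in these lungs. It stood at 128, 136, 119.7 and 132 CPM in young sham, at 299, 325, 363 and 365 at 1 h and at 154, 124, 87.9 and 307 at 1 day. All 1 h libraries were above all sham libraries, and at 1 day only library 4 was far above them. In old lungs it was at 198, 214, 169 and 114 CPM in sham, 238, 286, 272 and 287 at 1 h and 113, 168, 108 and 128 at 1 day. The log2 change at 1 h was 1.39 ± 0.26 in young lungs (adjusted p = 0.000198), while the old change did not pass the test although the groups did not overlap. Between 1 h and 1 day it fell in both ages, with log2 changes of -1.01 ± 0.26 in young and -1.07 ± 0.26 in old lungs (adjusted p = 0.00305 and 0.00210). Its promoter window, printed above, was among the 6 with a GAS core match.

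Irf7, the factor that amplifies type I interferon production, was called against sham at 1 day only, although its mean was already higher at 1 h. Its mean was 25.2 ± 1.44 CPM in young sham, 39.5 ± 4.602 at 1 h and 75.6 ± 38.6 at 1 day (SD, n = 4), and 25.4 ± 2.93, 40.7 ± 7.498 and 48.1 ± 27.4 CPM in old lungs. It was called at 1 day in young (1.59 ± 0.33, adjusted p = 0.000380) and in old lungs (0.92 ± 0.33, adjusted p = 0.0322). Old 1 day library 2 alone reached 89.1 CPM, with the others at 33.0 to 36.4, and without it the old change was 0.42 (adjusted p = 0.269). Stat2, a subunit of the ISRE-binding factor, rose by 0.47 ± 0.18 at 1 h and 0.49 ± 0.18 at 1 day in young lungs and by 0.49 ± 0.18 at 1 day in old lungs (adjusted p = 0.0416, 0.0241 and 0.0380). Without young 1 day library 4 the young 1 day change of Stat2 was 0.31 (adjusted p = 0.152), and without old 1 day library 2 the old change was 0.27 (adjusted p = 0.242). Removal of the GC trend took the young changes of Stat2 to 0.28 (adjusted p = 0.227) at 1 h and 0.29 (adjusted p = 0.177) at 1 day.

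Cxcl9 and Cxcl10 encode chemokines that attract activated T and NK cells through the receptor Cxcr3. Cxcl10 was at 5.47, 6.95, 3.403 and 5.04 CPM in young sham, 22.6, 29.5, 35.8 and 16.4 at 1 h and 9.99, 4.398, 3.71 and 19.1 at 1 day. The old values were 11.8, 14.3, 15.96 and 3.24, 20.8, 31.3, 30.2 and 29.1 and 16.9, 7.71, 11.2 and 2.54 CPM. The 1 h libraries were the high ones in both ages and did not overlap with sham. The 1 h change was 2.32 ± 0.54 on the log2 scale in young lungs (adjusted p = 0.00178) and did not pass the test in old lungs. From 1 h to 1 day Cxcl10 fell, with log2 changes of -1.49 ± 0.53 in young and -1.54 ± 0.53 in old lungs (adjusted p = 0.0253 and 0.0221). Neither of these calls held through every library left out in turn, and the young call did not hold under every alternative fit.
Cxcl9, which responds mainly to interferon gamma, was scarce in young lungs, at 0.580, 0.565, 0.725 and 0.163 CPM in sham, 1.04, 1.28, 2.23 and 0.516 at 1 h and 0.365, 0.286, 0.592 and 1.11 at 1 day. In old lungs it was at 1.202, 2.87, 4.42 and 2.396, 5.34, 5.47, 5.24 and 2.89 and 15.5, 0.667, 8.69 and 1.44 CPM. Every old sham library lay above every young sham library, and old 1 day spanned the widest range of any group.

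The guanylate-binding proteins and the immunity-related GTPases attack the vacuoles of intracellular microbes and are induced chiefly by interferon gamma. In young 1 day lungs the calls of Gbp2, Gbp5, Irgm1 and Igtp were lost without library 4. Gbp2 was at 52.7, 60.5, 49.1 and 55.00 CPM in young sham, 57.7, 53.5, 59.5 and 41.5 at 1 h and 74.2, 53.6, 40.6 and 263 at 1 day. The old libraries held 117, 79.3, 69.7 and 53.03, 78.4, 66.5, 69.00 and 60.3 and 88.6, 77.2, 82.3 and 68.4 CPM. Its log2 change in young lungs at 1 day was 0.99 ± 0.39 (adjusted p = 0.0358), and 0.04 (adjusted p = 0.904) without library 4. Gbp5 was at 12.3 to 16.7 CPM in young sham and at 19.8, 15.5, 9.04 and 73.2 at 1 day, with a log2 change of 1.02 ± 0.42 (adjusted p = 0.0472) that became 0.02 (adjusted p = 0.963) without library 4 and 0.98 (adjusted p = 0.0627) after removal of the GC trend. Gbp3 was called in no comparison with sham, at 29.4 to 32.2 CPM in young sham and 18.6 to 88.8 at 1 day. The genes of this family resemble each other closely, and the division of reads among them is uncertain.

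Igtp (Irgm3) was at 24.6, 24.6, 28.9 and 25.9 CPM in young sham, 41.5, 32.9, 39.3 and 28.6 at 1 h and 50.9, 37.04, 21.8 and 175 at 1 day. In old lungs it was at 87.2, 51.7, 47.1 and 37.9, 47.03, 53.7, 49.4 and 42.3 and 62.1, 67.8, 46.1 and 54.5 CPM, with every old sham library above every young one. The young change at 1 day was 1.45 ± 0.42 (adjusted p = 0.00565), and 0.48 (adjusted p = 0.113) without library 4. Irgm1, which regulates the other family members, was the early gene of the class. It rose at 1 h in young lungs from 36.6 to 38.97 to 70.2 to 79.1 CPM (0.99 ± 0.29, adjusted p = 0.00933). At 1 day it was at 56.03, 49.1, 31.8 and 129 CPM (0.83 ± 0.29, adjusted p = 0.0199), and without library 4 the change was 0.28 (adjusted p = 0.281). Iigp1 was at 46.7, 51.1, 49.7 and 57.99 CPM in young sham, 70.01, 56.9, 63.4 and 36.5 at 1 h and 32.1, 28.5, 27.02 and 80.97 at 1 day, with 3 of 4 libraries at 1 day below sham and library 4 above it. Its old values were 86.9, 64.3, 60.8 and 42.2 CPM in sham, 68.3, 115, 83.02 and 76.2 at 1 h and 68.7, 116, 99.8 and 68.4 at 1 day, with no call against sham at either age. Without young 1 day library 4, Iigp1 was called as lower at 1 day in young lungs (-0.83, adjusted p = 0.00789).

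**Figure D4:**
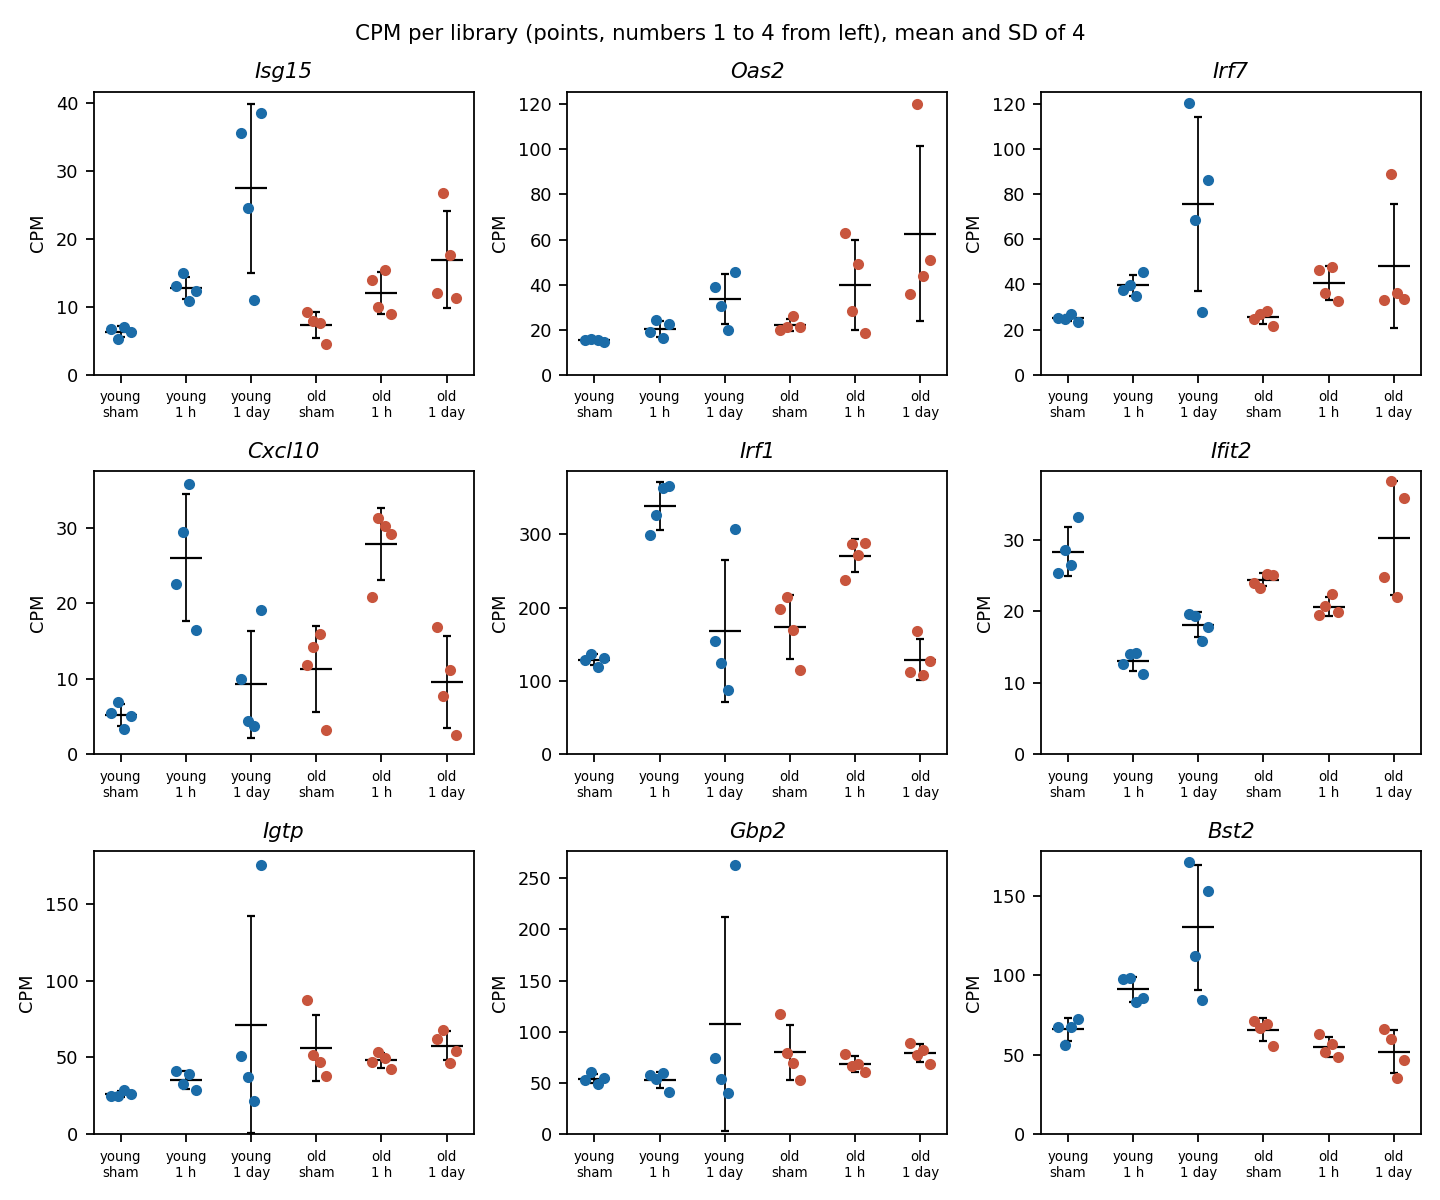
CPM of 9 of the genes in each library (points, blue for young and red for old, in the order of their numbers from left to right), with the mean and SD of 4 libraries. Cxcl10 and Irf1 are highest at 1 h, Isg15, Oas2 and Irf7 at 1 day, and Ifit2 is lowest at 1 h in young lungs. In young 1 day lungs Gbp2 and Igtp are high in 1 library, at 263 and 175 CPM.

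Between 1 h and 1 day after reperfusion, 15 members were higher at 1 day than at 1 h in young lungs (background 24.5%) and 2, Irf1 and Cxcl10, were lower (background 22.1%; 46.6% in either direction), with a median log2 change of 0.51 beside 0.00 over all genes. In young lungs Ifit2 had fallen at 1 h and was still below sham at 1 day, and the Mx1 libraries at 1 h lay below sham. In old lungs 7 were higher (background 24.1%) and the same 2 genes lower (background 20.9%; 45.0% in either direction), with a median of 0.21 beside 0.03. The 7 in old lungs were Ifit1, Ifit2, Ifit3, Oasl2, Xaf1, Ifih1 and Zbp1. Of these, 6 were also among the 15 in young lungs, Ifih1 being the exception. The young count fell from 17 to 10 without young 1 h library 3. The old count fell from 9 to 3 without old 1 day library 2, to 5 without old 1 h library 2 and to 4 without old 1 h library 4.

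In sham lungs 0 members were higher in old than in young lungs (background 1.09%) and 0 were lower (background 1.22%; 2.31% in either direction). Cxcl9, Igtp and Zbp1, 3 of the 35, had an unadjusted p under 0.05, beside 2757 of all 19690 genes, and DESeq2 called 1 member. When the sham libraries alone were fitted, 6 members were called.

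At 1 h 7 members were higher in old than in young lungs (background 20.5%) and 1 was lower (background 21.5%; 42.0% in either direction). The higher genes were Ifit2, Oas2, Mx1, Rsad2, Trim30a, Ifih1 and Cxcl9, and the lower gene was Bst2. The log2 difference, old minus young, was 1.26 ± 0.18 for Trim30a (adjusted p = 1.11e-05), 0.66 ± 0.14 for Ifit2 (adjusted p = 0.000599) and -0.73 ± 0.18 for Bst2 (adjusted p = 0.00276). After removal of the GC trend 3 members, Oas2, Trim30a and Bst2, were called. The difference of Ifit2 then became 0.29 (adjusted p = 0.134) and that of Ifih1 turned from 0.30 ± 0.12 to -0.02 (adjusted p = 0.908). The count fell from 8 to 3 without old 1 h library 3 and to 3 without young 1 h library 4, to 4 without old 1 h library 1, and to 5 without old 1 h library 2 or young 1 h library 1, 2 or 3.

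At 1 day 6 members were higher in old than in young lungs (background 25.1%) and 4 were lower (background 25.1%; 50.2% in either direction), and the median difference was -0.13 beside 0.02 over all genes. Higher in old lungs were Cxcl9 (3.46 ± 0.75, adjusted p = 0.000660), Trim30a (1.10 ± 0.18, adjusted p = 3.10e-05), Iigp1 (1.06 ± 0.31, adjusted p = 0.00665), Oas2, Ifit2 and Ifih1. Lower in old lungs were Ifi27l2a (-1.84 ± 0.51, adjusted p = 0.00548), Bst2 (-1.32 ± 0.18, adjusted p = 6.14e-06), Oas1a and Dhx58. The log2 difference was -0.80 ± 0.28 for Oas1a (adjusted p = 0.0238) and 0.89 ± 0.35 for Oas2 (adjusted p = 0.0381), and neither call held with every library left out. Without young 1 day library 4 Oas1a was at -0.57 (adjusted p = 0.104), and without old 1 day library 2 Oas2 was at 0.35 (adjusted p = 0.359). With the GC trend removed 5 members, Bst2, Trim30a, Cxcl9, Oas2 and Ifi27l2a, were called, and Iigp1 was at 0.39 (adjusted p = 0.323). Among the 10, the calls of Bst2, Trim30a and Cxcl9 held under every alternative fit and with any library left out.

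The change from sham itself differed between the ages for few members. At 1 h the old change exceeded the young change for 2 members (background 8.07%), Trim30a by 1.03 ± 0.25 (adjusted p = 0.00656) and Ifit2 by 0.88 ± 0.19 (adjusted p = 0.00387), and was below it for 0 (background 9.46%; 17.5% in either direction). At 1 day it was above for Ifit2 (0.95 ± 0.19, adjusted p = 0.000931) and Trim30a (0.87 ± 0.25, adjusted p = 0.0113), which makes 2 members (background 15.2%). It was below for 1 (background 15.2%; 30.3% in either direction), Bst2 (-1.32 ± 0.26, adjusted p = 0.000725). For the other 20 of the 22 genes called at 1 day in young lungs, Isg15, Zbp1 and Irf7 among them, a difference in response between ages was not shown. After removal of the GC trend 0 members were called at 1 h and Bst2 alone at 1 day (-1.03, adjusted p = 0.00523); Trim30a was then at 0.59 (adjusted p = 0.179) at 1 h and 0.34 (adjusted p = 0.346) at 1 day, and Ifit2 at 0.51 (adjusted p = 0.161) and 0.53 (adjusted p = 0.0703). The count at 1 day was 11 without young 1 day library 3, 8 without old 1 day library 2, 7 without young 1 day library 2, and 5 without old 1 day library 1 or 3, young 1 day library 4 or young sham library 3, with the 3 calls above among them each time.

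The interferons themselves were hardly detectable. Of 20 interferon genes looked up, 16 were at 0 in every library. Ifnb1, the interferon beta gene, had estimated reads in 3 libraries, at most 3 in any of them. Ifnab and Ifnz reached at most 4. Ifng, the interferon gamma gene, was the only 1 of the 20 to pass the filter on low counts and was called in no comparison. It was at 0.151, 0, 0 and 0.195 CPM in young sham, 0.139, 0.329, 0.304 and 0 at 1 h and 0, 0, 0 and 0.359 at 1 day, and at 0.493, 0.248, 0.424 and 0, 0.854, 0.529, 0.327 and 0.289 and 0.670, 0, 0.127 and 0 CPM in old lungs. Library 4, which held the high GBP and immunity-related GTPase values, was the only young 1 day library with Ifng reads. It had 12 estimated reads, as had young 1 h library 3. The guanylate-binding protein genes of the list summed to 425 CPM in the former and 119 in the latter, and a link was not tested. A count of 0 at these depths shows only that the transcript was not detected.

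Of the 6 receptor genes, 1 was called at each time in each age, against 41.3% and 25.2% of all genes at 1 h in young and old lungs and 53.9% and 36.3% at 1 day. Ifnar1 rose in old lungs at 1 h (0.25 ± 0.09, adjusted p = 0.0426) and at 1 day (0.26 ± 0.09, adjusted p = 0.0246), and Ifnar2 in young lungs at 1 h (0.23 ± 0.09, adjusted p = 0.0374). Each of these 3 calls was lost when any of 7 of the 8 libraries compared was left out. Ifnlr1, the subunit specific to type III interferon, fell in young lungs at 1 day (-0.70 ± 0.15, adjusted p = 0.000368), from 26.2 ± 4.37 to 16.2 ± 1.64 CPM (SD, n = 4), and its change differed between the ages (0.66 ± 0.21, old minus young, adjusted p = 0.0177). Ifngr1, Ifngr2 and Il10rb were called in no comparison with sham; Ifngr1 was at 226 ± 10.9 CPM in young sham and 225 ± 36.4 at 1 day, and Ifngr2 at 57.8 ± 2.802 and 52.4 ± 7.23.

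Of 9 further Janus kinase, STAT and IRF genes, 4 rose and 0 fell at 1 h in each age (background 21.2% higher in young and 12.6% in old lungs). At 1 day 5 rose (background 27.9%) and Jak2 fell in young lungs, or 1 and 1 without young 1 day library 4, and 0 were called in old lungs (background 36.3% in either direction), where at 1 h Jak2 had risen (0.73 ± 0.12, adjusted p = 0.000178). Tyk2, the kinase bound to Ifnar1, rose in young lungs at 1 day (0.69 ± 0.09, adjusted p = 2.28e-06) while Jak2, a kinase of the gamma receptor, fell (-0.71 ± 0.12, adjusted p = 4.77e-05). The change at 1 day differed between the ages for Jak2 (0.88 ± 0.17, adjusted p = 0.000759) and Tyk2 (-0.65 ± 0.13, adjusted p = 0.000965). These changes from sham and age differences, and those of the other pathway genes, are given without removal of the GC trend.

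Among 14 genes of sensing upstream of interferon, 5 rose and 2 fell at 1 h in young lungs and 8 rose and 2 fell in old lungs, beside 21.2% and 12.6% of all genes higher and 20.1% and 12.6% lower. Without old 1 h library 1 the old counts were 4 and 1, and without old sham library 3 they were 4 and 2. At 1 day 7 rose and 3 fell in young lungs (background 27.9% and 26.0%) and 6 rose and 0 fell in old lungs (background 20.0% and 16.3%). Tmem173 (STING), Myd88 and Ticam1 (TRIF), adaptors of the cytosolic DNA and Toll-like receptor pathways, rose in all 4 comparisons with sham, although the call of Ticam1 in old lungs at 1 day was lost when any of 6 of the 8 libraries was left out. The change of Tmem173 was 1.37 ± 0.14 at 1 h and 0.96 ± 0.14 at 1 day in young lungs, and 1.12 ± 0.14 and 1.28 ± 0.14 in old lungs. Myd88 changed by 1.47 ± 0.16 in young and 1.26 ± 0.16 in old lungs at 1 h, and Ticam1 by 1.05 ± 0.09 and 0.79 ± 0.09 (all with an adjusted p of at most 7.16e-06). Tlr3, the endosomal receptor for double-stranded RNA, fell in young lungs at 1 day (-1.17 ± 0.17, adjusted p = 8.01e-06). At 1 h Tlr7 and Tlr8, receptors for single-stranded RNA, responded differently in the ages (1.53 ± 0.30 and 1.32 ± 0.34, old minus young, adjusted p = 0.00179 and 0.0100).

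Of 11 inhibitors of the pathway, 6 rose and 1 fell at 1 h in young lungs and 5 rose and 1 fell in old lungs, and at 1 day 4 rose and 2 fell in young and 6 rose and 1 fell in old lungs. The background was 21.2% higher and 20.1% lower in young and 12.6% each way in old lungs at 1 h, and 27.9% and 26.0% in young and 20.0% and 16.3% in old lungs at 1 day. Without old 1 day library 2 the old counts at 1 day were 3 and 1. Socs1, which shuts off Janus kinases, rose in all 4 comparisons, by 1.80 ± 0.23 at 1 h in young (adjusted p = 2.80e-06) and 1.54 ± 0.23 in old lungs (adjusted p = 5.14e-05). Trex1, which degrades cytosolic DNA, rose by 1.92 ± 0.31 at 1 h in young lungs (adjusted p = 4.52e-05). Socs3 was higher at 1 day in old lungs (2.13 ± 0.47, adjusted p = 0.00152), and its change differed between the ages (2.37 ± 0.65, adjusted p = 0.00937). Its old 1 day libraries held 153, 1442, 648 and 362 CPM, with library 2 far above the rest. Pias1 fell at 1 day in young (-0.50 ± 0.07, adjusted p = 1.29e-06) and old lungs (-0.45 ± 0.07, adjusted p = 1.95e-05).

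Of 30 further genes induced by type I interferon, 6 rose and 5 fell at 1 h in young lungs (background 21.2% and 20.1%) and 6 rose and 2 fell in old lungs (background 12.6% and 12.6%). The 11 and 8 called compare with 41.3% and 25.2% of all genes called in either direction. At 1 day 14 rose and 5 fell in young lungs (background 27.9% and 26.0%) and 9 rose and 1 fell in old lungs (background 20.0% and 16.3%). Ifitm3, which blocks the entry of enveloped viruses, rose at 1 day by 1.94 ± 0.21 in young (adjusted p = 1.02e-07) and 1.00 ± 0.20 in old lungs (adjusted p = 0.000610), a difference between ages of -0.94 ± 0.28 (adjusted p = 0.0159). Oas1g, the copy of Oas1a, rose in young lungs by 2.36 ± 0.32 (adjusted p = 2.11e-06). Eif2ak2 (PKR) and Ddx60 responded differently in the ages at 1 day (0.97 ± 0.22 and 0.98 ± 0.28, old minus young, adjusted p = 0.00211 and 0.0105). In sham lungs 2 genes of this list, Apol9a (1.55 ± 0.35, adjusted p = 0.0202) and its near copy Apol9b (1.39 ± 0.32, adjusted p = 0.0212), were higher in old than in young lungs. These calls were lost when any of 5 (Apol9a) or 4 (Apol9b) of the 8 sham libraries was left out.

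Of 22 further genes induced by interferon gamma, 21 were tested. At 1 h 2 rose in young lungs (background 21.2%) and 1 in old lungs (background 12.6%). At 1 day 13 rose in young (background 27.9%) and 3 in old lungs (background 20.0%), and 0 fell at either time in either age. Without young 1 day library 4, in which Gbp2, Gbp5 and Igtp were also high, 6 rose and 2 fell in young lungs. Without old 1 day library 1, 3 rose and 5 fell in old lungs. The 3 called in old lungs, Fcgr1, Socs1 and Il18bp, were also called in young lungs. Socs1 is counted among the inhibitors above as well. Fcgr1, a high-affinity antibody receptor of monocytes and macrophages, had the smallest p of the list at 1 day in both ages and changed by 3.20 ± 0.36 in young (adjusted p = 2.21e-07) and 2.46 ± 0.35 in old lungs (adjusted p = 1.63e-05). The immunoproteasome gene Psmb8 rose in young lungs (1.01 ± 0.17, adjusted p = 3.47e-05), and its change differed between the ages (-1.01 ± 0.24, adjusted p = 0.00318). The change at 1 day was lower in old lungs for 7 of the 21 and higher for 0, against a background of 15.2% in each direction; without young 1 day library 3 it was lower for 12.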

How the data were processed

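Per the labels, total RNA of 24 lung samples was made into stranded mRNA libraries. The authors aligned and quantified reads with HISAT2 and StringTie on GRCm38/mm10, per the submitters' processing notes; versions and the strand setting of the counting are not given in the sources used here. The deposited read counts are estimated counts per transcript: in every library 98.4% to 99.03% of values under 50 were the product of FPKM, length and a constant, rounded up. The deposited FPKM, scaled by the authors to length and library total, served that check. The deposited TPM values were summed per gene where levels of different genes are set side by side.

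Counts were summed per gene symbol. In edgeR 4.0.16 (R 4.3.3), genes were kept by filterByExpr with a minimum count of 10, scaled by TMM, and fitted by a robust quasi-likelihood model with 6 group means over 24 libraries. The biological coefficient of variation was 23.2%. Contrasts were two-sided, adjusted by Benjamini-Hochberg over 19690 genes within a comparison, and called at an adjusted p under 0.05. The SE of a log2 change is its size over the square root of F. CPM are counts over TMM-scaled totals, with SDs over 4 libraries. The steps were tested on simulated counts. Alternatives were DESeq2 1.42.0, its size factors, no low-count filter, a replicate block, only the groups compared, removal of a GC trend, the most abundant transcript, and each library left out.

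The 35 members, the 112 entries of the other pathway lists and the markers were chosen with earlier results of these data known. Socs1 is on both the inhibitor list and the list of further genes induced by interferon gamma. All members may be named; values of every library are given for those with the 3 smallest p in a comparison with sham or of the ages and for the member of each role with the highest mean CPM, and of each other list up to 3 genes with the smallest p in a comparison are named, with all detected ligands and receptors. The library values of Socs3 were added after they were seen, as was the note on Ifng in library 4. Comparisons with sham at 1 h and 1 day share their sham libraries. The result for 1 listed pathway gene is not reported here.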

Additional observations from a re-analysis of the deposited data

Results flagged for a closer look

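In 19 of the 210 combinations of a member and a group of 4 libraries, the highest or lowest library was separated from the nearest other by more of the group's range than Dixon's 95% critical value allows; chance flags about 1 in 20.

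Old 1 day library 2 was the high one for Oasl2 at 148 CPM, Parp14 at 176, Ifi44 at 23.04, Xaf1 at 52.8, Zbp1 at 41.7 and Irf7 at 89.1 CPM. In the same group library 3 stood apart for Ifi27l2a at 64.4 CPM. Young 1 day library 4 was the high one for Gbp2 at 263, Gbp5 at 73.2 and Iigp1 at 80.97 CPM, and library 3 of that group was the low one for Ifit1 at 17.02 CPM. In old 1 h lungs library 4 was low for Parp14 at 109 and Cxcl9 at 2.89 CPM, and library 1 was high for Trim30a at 97.6 CPM. In young 1 h lungs library 3 was low for Oas1a at 9.86 and high for Mx2 at 6.21 CPM. Among the sham libraries, Ifit3 was low in old library 4 at 36.8 CPM, Dhx58 high in old library 1 at 12.9 CPM and Oas1a high in young library 3 at 9.23 CPM.

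The change from sham differed between the ages, by the test of that difference in edgeR's quasi-likelihood fit, for 2 members at 1 h and 3 at 1 day. At 1 h the log2 difference, old minus young, was 0.88 ± 0.19 for Ifit2 (adjusted p = 0.00387) and 1.03 ± 0.25 for Trim30a (adjusted p = 0.00656). At 1 day it was 0.95 ± 0.19 for Ifit2 (adjusted p = 0.000931), -1.32 ± 0.26 for Bst2 (adjusted p = 0.000725) and 0.87 ± 0.25 for Trim30a (adjusted p = 0.0113).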

How the results depend on the processing

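Counts of members called are given in the order young 1 h, old 1 h, young 1 day and old 1 day against sham, young and old 1 day against 1 h, old against young in sham, 1 h and 1 day, and the age difference in the change from sham at 1 h and 1 day, where the reported counts were 9, 3, 22, 13, 17, 9, 0, 8, 10, 2 and 3. With DESeq2's size factors in edgeR no count moved by more than 1.5 times. Using the most abundant transcript of each gene gave 5, 0, 13, 5, 7, 3, 0, 1, 6, 0 and 2. The GC trend was fitted on the more abundant of the 17994 tested genes with known GC content. Its removal gave 5 for young 1 h, 3 for old against young at 1 h, 5 at 1 day, and 0 and 1 for the age differences. Fitting only the groups compared gave 23 for young 1 h, 12 for old 1 h, 7 for old 1 day, 6 for the shams, 5 for old against young at 1 day and 7 for the age difference at 1 h. DESeq2 gave 7 for old 1 h, 1 for the shams and 6 for the age difference at 1 day. Without the low-count filter old against young at 1 h gave 5. The cause of these moves was not tested. Across libraries left out, counts ranged over 5 to 8, 1 to 4, 16 to 24, 6 to 15, 10 to 19, 3 to 9, 0 to 0, 3 to 8, 8 to 14, 2 to 3 and 3 to 11.

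The labels do not say that the replicate numbers pair samples, and correlations of same-numbered deviations ran from -0.49 to 0.47. With the replicate block the counts were 9, 3, 20, 11, 14, 8, 0, 7, 9, 3 and 4. Of 672 values of called members under the alternatives that keep all libraries, 526 kept direction and threshold, 145 lost the call and 1 reversed, Ifih1 in old against young 1 h lungs after removal of the GC trend (log2 difference -0.0228). Across libraries left out, 634 kept both and 174 lost the call. Depth limits the interferon genes themselves, which gave 0 to 24 estimated reads per library.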
